A study of Mus musculus with 12 samples.

Results

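Purkinje cells (PCs) and working ventricular myocytes (VMs) of *Ncam-1* knockout (KO) hearts were compared through 6 of the 12 libraries of the series, 3 of KO PCs and 3 of KO VMs, which were chosen by their titles. All 6 came from adult mice that lacked *Ncam-1* in every cell and carried the *Cntn2*-EGFP transgene, a reporter under *Cntn2* regulatory sequence that the wild-type (WT) mice of the other 6 libraries carried too. Dissociated ventricular cells were incubated with 50 nM TMRM, a red dye taken up by mitochondria, for 15 min, and were sorted as dye-positive cells with GFP (PCs) or without it (VMs). The sort therefore took a PC as a cell in which the *Cntn2* transgene was active, and the transgene itself was not counted. The sources do not say how many hearts went into a library or whether a PC and a VM library with the same number shared a heart, so p-values measure the spread between these samples, which may be technical.

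PCs are the cardiomyocytes of the ventricular conduction system (VCS). They form a subendocardial network that carries the impulse rapidly to the working myocardium, and they share the contractile machinery of VMs while expressing a particular set of adhesion molecules, ion channels and transcription factors. Of the 4 markers used here, *Cntn2* encodes contactin 2, an immunoglobulin-like adhesion molecule, and *Gja5* encodes connexin 40, a gap junction protein of fast conduction. *Scn10a* encodes the sodium channel subunit Nav1.8, and *Etv1* encodes a transcription factor of the ETS family.

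Between 13883427 and 20353726 read pairs were counted on genes in the 3 KO PC libraries and between 14873649 and 22156799 in the 3 KO VM libraries. Genes of the mitochondrial genome took 79.0% of the counts in KO PC 3 and 85.8% to 88.7% in the other 5, which left 4276857 counts for all other genes in KO PC 3 and 1571418 to 2622827 in the others. *Ncam1*, the targeted gene, had raw counts of 0, 1 and 1 in KO PCs and 0, 0 and 0 in KO VMs. In WT PCs it had 83, 34 and 116. Values below are normalized counts, that is, counts divided by each library's effective size and brought to the mean size of the 6 KO libraries. The floor was 3 counts, and a gene that exceeded it in no KO VM library was taken as undetected there, with its fold given as a lower bound against 3 counts per library. The floor covers counting error only, since no molecular identifiers were used and read pairs may be copies of 1 molecule. Adjusted p-values come from the quasi-likelihood test of edgeR after Benjamini-Hochberg adjustment over all genes tested.

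In normalized counts all 4 markers were higher in every KO PC library than in any KO VM library, and 3 of them passed the test. Among all genes tested, 8.73% separated in this direction and 0.854% passed the test as higher in PCs. A gene was tested if its mean normalized count exceeded 5. For 3 of the 4 markers the KO VM mean was 5 or less, so they were tested through the PC libraries. *Cntn2* (ENSMUSG00000053024, chromosome 1 of GRCm38, 132509427 to 132543256, minus strand) had normalized counts of 33.6, 42.7 and 393 in KO PCs 1, 2 and 3 and of 2.45, 7.80 and 4.02 in KO VMs 1, 2 and 3. The third KO PC library thus stood far above the other two, which still lay above all VM libraries. These values gave a log2 fold change of 5.05 (standard error 0.878, adjusted p = 0.0136). Because the reporter used for sorting is driven from *Cntn2*, its enrichment is a check of the sort.

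*Scn10a* (chromosome 9, 119608456 to 119719322) had 24.4, 19.7 and 81.2 in KO PCs and 0, 6.69 and 1.005 in KO VMs, a log2 fold change of 4.01 (standard error 0.782, adjusted p = 0.0240). *Etv1* (chromosome 12, 38779380 to 38870484) had 91.5, 48.2 and 224 in KO PCs and 22.1, 21.2 and 17.1 in KO VMs, a log2 fold change of 2.63 (standard error 0.454, adjusted p = 0.0136). *Gja5* (chromosome 3, 96904693 to 97077416) had 19.8, 4.38 and 80.0 in KO PCs and 2.45, 1.11 and 4.02 in KO VMs. Its groups did not overlap, but the log2 fold change of 3.77 (standard error 0.881) did not pass the adjustment (adjusted p = 0.0601). KO PC 2 was only slightly above KO VM 3, the highest VM library for *Gja5*. Both had the same raw count, just above the floor of 3, so their order rests on the normalization. Part of the gene lies across from *Gpr89*, a gene of the other strand with at most 60 counts in a KO library. The strand setting of the counting is not given in the sources used here.

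The margin of these markers depended on single libraries. Without KO PC 3, the log2 fold change was 2.96 for *Cntn2* (adjusted p = 0.0153), 1.77 for *Etv1* (adjusted p = 0.0274), 3.01 for *Scn10a* (adjusted p = 0.128) and 2.11 for *Gja5* (adjusted p = 0.491). With 1 KO VM library left out, *Cntn2* had an adjusted p of 0.0946, 0.0603 and 0.0641 without KO VMs 1, 2 and 3, and *Etv1* one of 0.0683, 0.0622 and 0.0641, in edgeR's quasi-likelihood test. *Scn10a* kept its call without KO VM 2 (adjusted p = 0.0280) and not without KO VM 1 (0.109) or KO VM 3 (0.103). Of the 6 omissions, *Gja5* passed only in that of KO PC 2, the library in which it was lowest among PCs (adjusted p = 0.0175). It also passed in DESeq2 (adjusted p = 0.00693), with the replicate number as a block (adjusted p = 0.0106) and without a filter on low counts (adjusted p = 2.9e-07). Voom with sample weights kept only *Etv1* (adjusted p = 0.0318), with 0.148 for *Cntn2* and 0.125 for *Scn10a*, and DESeq2 gave no adjusted p for *Cntn2*. A fit of all 12 libraries called 0 of the 4 in edgeR. Every fit that gave a marker an adjusted p kept its direction.

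Because these markers moved together across the PC libraries, the bases before their RefSeq start sites were read, up to 250 bases on the gene's strand (GRCm38.p6), without bases that GENCODE places in an exon. Capitals mark GGAAG, the core read by ETS factors such as *Etv1*, searched on both strands.
*Cntn2*, chr1:132542941-132543028, minus strand: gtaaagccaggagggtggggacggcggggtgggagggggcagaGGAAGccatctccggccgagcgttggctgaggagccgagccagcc
*Gja5*, chr3:97032152-97032401, plus strand: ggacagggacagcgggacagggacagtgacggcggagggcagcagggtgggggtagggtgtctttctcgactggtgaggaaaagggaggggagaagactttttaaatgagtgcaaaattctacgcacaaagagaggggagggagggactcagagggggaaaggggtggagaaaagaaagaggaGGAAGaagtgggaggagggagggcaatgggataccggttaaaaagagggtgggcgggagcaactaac
*Etv1*, chr12:38779832-38780081, plus strand: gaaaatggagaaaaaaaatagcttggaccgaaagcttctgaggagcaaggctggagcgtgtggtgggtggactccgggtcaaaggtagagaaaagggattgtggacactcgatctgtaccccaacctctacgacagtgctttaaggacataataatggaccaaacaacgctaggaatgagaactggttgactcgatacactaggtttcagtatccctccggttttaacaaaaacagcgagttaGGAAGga
The core was found in 4 of the 5 windows of 250 bases that RefSeq starts give for the 4 markers, among them that of *Scn10a*, which lies in an annotated exon and is not printed. The same 5 letters occur in 64.1% of all 32851 promoter windows of that length. The longer ETS motif CCGGAA (12% of all windows), the T-box motif AGGTGT (11.8%) and the NKX2-5 motif TNAAGTG (10.1%) had no match in any of the 5 windows on either strand. These matches describe letters in a window and say nothing of binding.

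Nearly all genes that passed the adjustment were higher in KO PCs, whereas below it the sides were less uneven. Of 10887 genes with a mean normalized count above 5, 93 were called higher in KO PCs at an adjusted p under 0.05, which is 0.854% of the genes tested, and 1 was called lower, which is 0.00919%. At an unadjusted p under 0.05, 776 were higher and 282 lower. The median log2 fold change over all genes was 0.01. The 3 PC libraries lay wholly above the 3 VM libraries for 8.73% of all genes and wholly below for 6.88%. Leaving out 1 library moved the number called by more than 1.5 times in every case. It was 37, 46 and 150 without KO PCs 1, 2 and 3 and 19, 37 and 20 without KO VMs 1, 2 and 3. Called genes that kept their call in each of the 6 omissions numbered 13, namely *Igfbp5*, *Bgn*, *Sparc*, *Timp3*, *Cdh5*, *Lum*, *Emp1*, *Slc24a2*, *Mgp*, *Calcrl*, *Cav1*, *Eef1a1* and *mt-Tp*. Every other call named in what follows was lost in at least 1 omission. The log2 fold change stayed positive for each of the 93 in every alternative run that gave it an adjusted p.

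**Figure D1:**
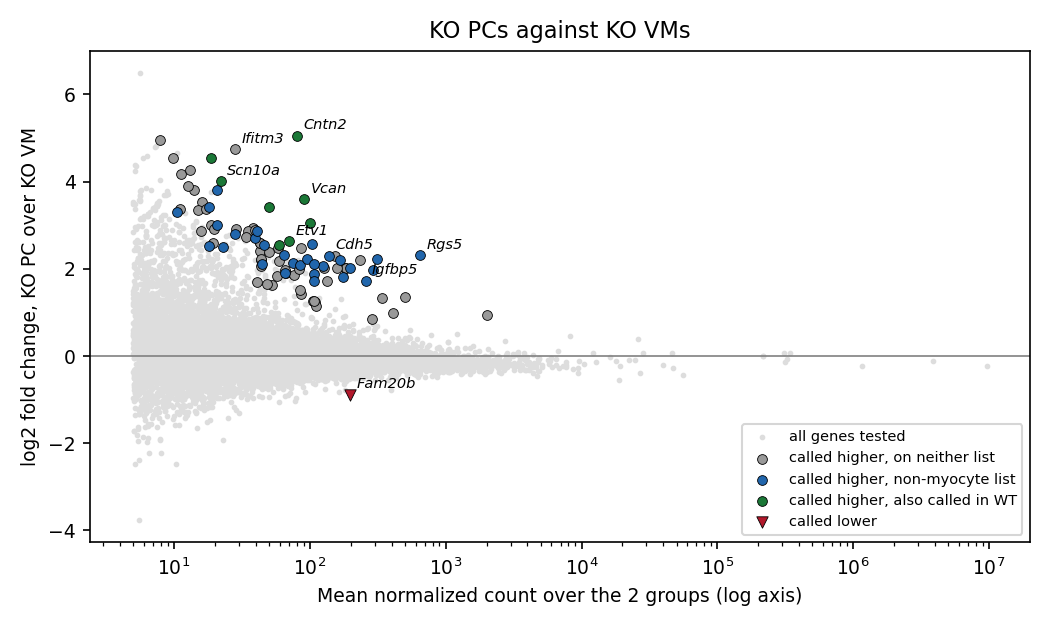
Log2 fold change of KO PCs over KO VMs (vertical axis) against the mean normalized count of both groups (horizontal axis, log scale) for 10887 genes. Green points are the 8 genes that were also called in WT, blue points the 29 on a list of non-myocyte markers, outlined grey points the other 56 genes called higher, and the red triangle is *Fam20b*, the 1 gene called lower.

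The single gene called lower in KO PCs was *Fam20b* (chromosome 1), which encodes a xylosylkinase of proteoglycan synthesis. It had 140, 135 and 143 normalized counts in KO PCs and 216, 308 and 248 in KO VMs. Its PC values lay closely together below all VM values, with a log2 fold change of -0.88 (standard error 0.183, adjusted p = 0.0289). It kept the call only without KO PC 3 (adjusted p = 0.0496), while the other 5 omissions gave 0.0508 to 0.162 in edgeR's quasi-likelihood test. In WT its log2 fold change was -0.12 (adjusted p = 0.946).

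Of the genes called higher in PCs of WT hearts, 8 of 13 were also called in the KO, and all 13 were highest in KO PC 3. In the 6 WT libraries, which share none with the KO comparison, 13 of 12035 genes were called higher in PCs (0.108%). These 13 were chosen with earlier results of these data known. WT PC 2 stood apart, with 63.9% of its read pairs unaligned where the other 11 libraries had 18.8% to 24.7%, and without it 108 genes were called in WT, all 13 among them. In the KO, all 13 had a positive log2 fold change and 11 had PC libraries wholly above the VM libraries, against 8.73% of all genes. The 8 calls compare with 0.854% of all genes. Their median log2 fold change was 3.13 in KO, or 2.77 with the 3 genes at the floor in KO VMs put at their bounds. In WT it was 4.98, or 4.97 with the 3 genes at the floor in WT VMs put at their bounds. The 13 were chosen by their WT call, which bears on the higher WT median.

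**Figure D2:**
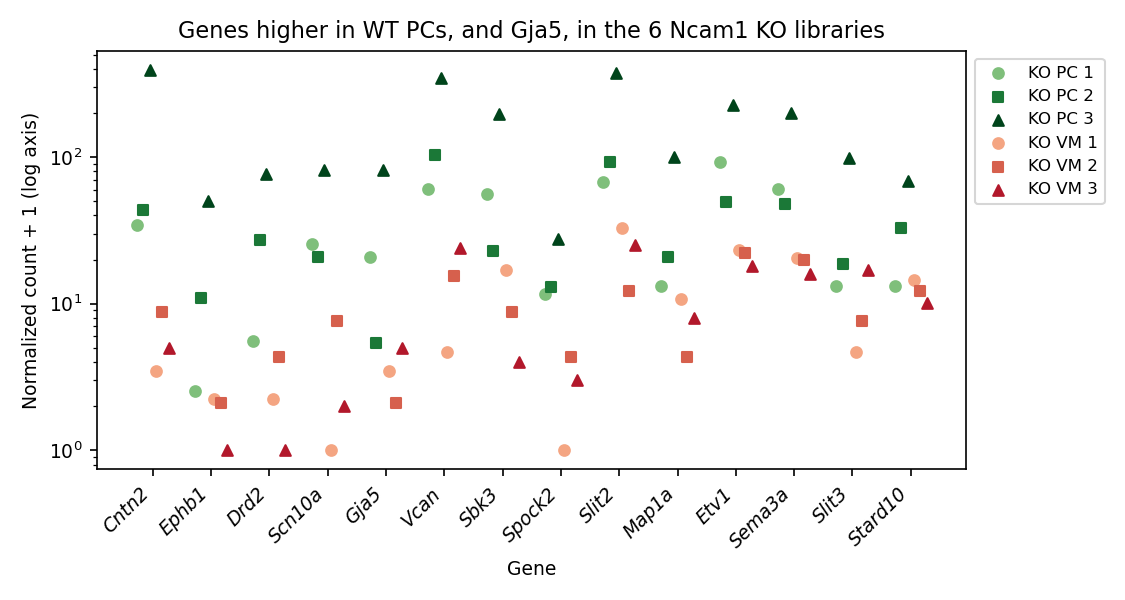
Normalized count plus 1 (vertical axis, log scale) of the 13 genes called higher in WT PCs and of *Gja5* in each of the 3 KO PC libraries (green) and 3 KO VM libraries (red). KO PC 3, the dark triangle, is the highest point for every gene, at 393 for *Cntn2* against 33.6 and 42.7 in KO PCs 1 and 2.

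Beside *Cntn2*, *Scn10a* and *Etv1*, the 8 called in both genotypes were *Drd2*, *Vcan*, *Sbk3*, *Slit2* and *Sema3a*. *Vcan*, which encodes the large matrix proteoglycan versican, had 59.5, 102 and 344 in KO PCs and 3.68, 14.5 and 23.1 in KO VMs, a log2 fold change of 3.61 (standard error 0.586, adjusted p = 0.0104). *Slit2*, a secreted guidance ligand of Robo receptors, had 67.1, 90.9 and 375 in KO PCs against 31.9, 11.1 and 24.1 in KO VMs, a log2 fold change of 3.04 (standard error 0.546, adjusted p = 0.0150). *Sema3a*, a secreted semaphorin that guides sympathetic nerves in the heart, had 59.5, 47.1 and 198 against 19.6, 18.9 and 15.1, a log2 fold change of 2.55 (standard error 0.474, adjusted p = 0.0183). For all of these the 3 PC values exceeded the 3 VM values, and KO PC 3 was the highest.

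*Sbk3*, a gene for a predicted serine/threonine kinase, had 54.9, 21.9 and 194 in KO PCs and 16.0, 7.80 and 3.01 in KO VMs (log2 fold change 3.42, standard error 0.683, adjusted p = 0.0253). *Drd2*, the dopamine receptor D2 gene, had 4.58, 26.3 and 76.0 in KO PCs and 1.23, 3.34 and 0 in KO VMs. It was at the floor in KO VMs and at least 10.6-fold higher in PCs, although KO PC 1 barely exceeded the highest VM library. Without KO PC 3, *Vcan* (adjusted p = 0.0128) and *Slit2* (0.0251) kept their calls, as did *Cntn2* and *Etv1*. *Sema3a* (0.0609), *Sbk3* (0.128) and *Drd2* (0.167) lost theirs in that fit of edgeR's quasi-likelihood test, and without KO VM 1 none of the 8 was called.

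The other 5 of the 13 did not pass the adjustment in KO. *Ephb1*, an ephrin receptor gene, had 1.53, 9.86 and 49.3 in KO PCs and 1.23, 1.11 and 0 in KO VMs. It was at least 6.04-fold higher against the VM floor (adjusted p = 0.0779). *Spock2*, which encodes a matrix proteoglycan, had 10.7, 12.1 and 26.7 against 0, 3.34 and 2.01 and was at least 4.92-fold higher (adjusted p = 0.105). The microtubule gene *Map1a*, the guidance ligand gene *Slit3* and the lipid transfer gene *Stard10* had log2 fold changes of 2.77, 2.30 and 1.79, with adjusted p-values of 0.0834, 0.165 and 0.159 in edgeR's quasi-likelihood test. In each of these 3, KO PC 3 was far above the other PC libraries, and for *Slit3* and *Stard10* the groups overlapped.

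Most of the called genes that stood on a list of cell markers were non-myocyte genes, of endothelial cells and fibroblasts above all. Of 227 genes on 8 lists of markers of cells other than myocytes, 111 had a mean count above 5 and were tested, and 62 had 3 or fewer counts in every KO library. Called higher in PCs were 29 of the 111 (26.1%), against 0.854% of all genes, and 0 were called lower. The median log2 fold change of the 111 was 1.97 (1.91 with 8 genes at their bounds), against 0.01 over all genes. Of the 111 tested, 35 had a VM mean of 5 or less and so passed the filter through the PC libraries, as 5.68% of all genes did. The levels summed over each list need no filter. Over all 8 lists they were 18811.5, 15036 and 13730.5 in KO PCs and 8436, 10547 and 10494 in KO VMs, so the groups did not overlap. In bulk samples, fewer cells of a type and less RNA per cell cannot be told apart.

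**Figure D3:**
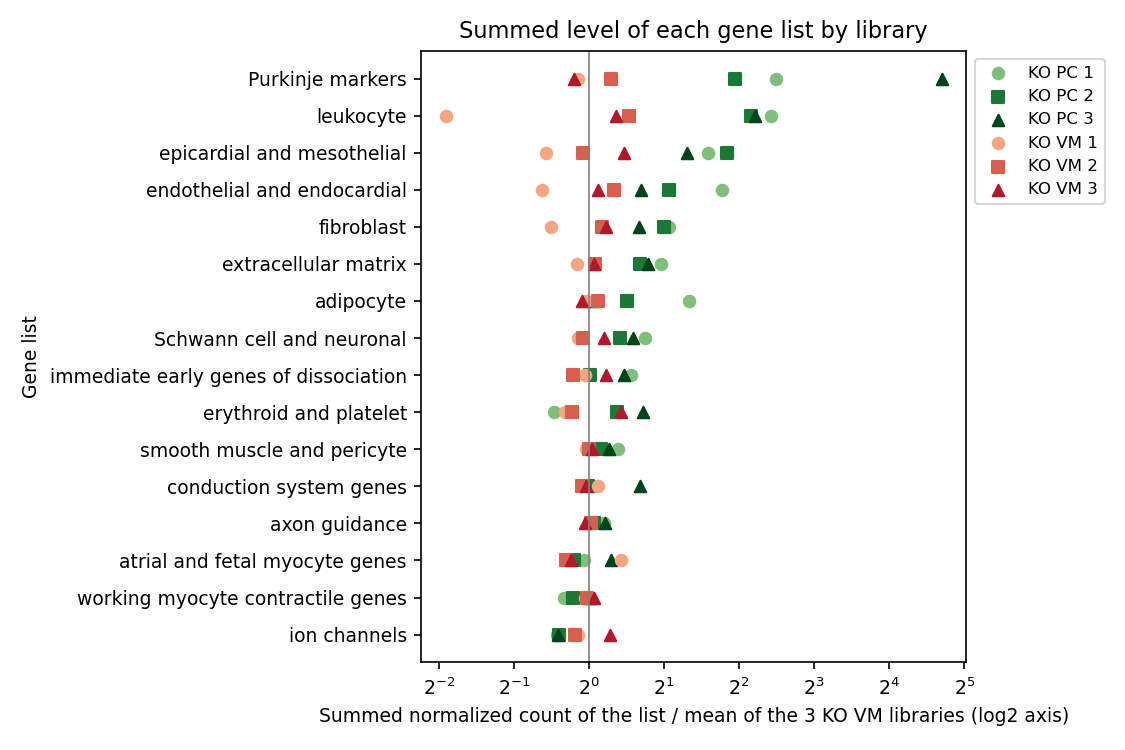
Summed normalized count of each gene list in each KO library, divided by the mean of the 3 KO VM libraries (horizontal axis, log2 scale). KO PC libraries are green and KO VM libraries red. KO PC 3 stands apart for the Purkinje markers, KO PC 1 is highest for the endothelial list, and KO VM 1 is the lowest library for the leukocyte, endothelial and fibroblast lists.

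Of 34 endothelial and endocardial genes tested, 12 were called higher, against 0.854% of all genes. The number fell to 8 in DESeq2 and 9 in voom. Of the 34, 6 had a VM mean of 5 or less and so passed the filter through the PC libraries. *Cdh5*, the gene of the endothelial adherens junction protein VE-cadherin, had 357, 197 and 143 in KO PCs and 25.8, 56.8 and 55.3 in KO VMs, a log2 fold change of 2.30 (standard error 0.334, adjusted p = 0.00635). *Pecam1*, which encodes the endothelial adhesion molecule CD31, had 297, 131 and 96.8 against 8.59, 59.1 and 49.2, a log2 fold change of 2.11 (standard error 0.468, adjusted p = 0.0416). The endothelial transcription factor gene *Erg* had 65.6, 24.1 and 22.04 against 3.68, 4.46 and 5.02 (log2 fold change 2.997, adjusted p = 0.0252). All 3 genes were highest in KO PC 1 and lowest among PCs in KO PC 3, the library in which the Purkinje markers were highest.

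The other 9 endothelial calls were *Ly6a*, *Ly6c1*, *Eng*, *Fabp4*, *Cav1*, *Cav2*, *Podxl*, *Ptprb* and *Flt1*. Their log2 fold changes ran from 1.71 (*Flt1*, a receptor of vascular endothelial growth factor) to 2.87 (*Ly6a*, a surface antigen gene). The counts of *Ly6a* and *Ly6c1* are less certain, because genes of their family have close paralogs. *Fabp4*, the fatty acid binding protein of capillary endothelium and fat cells, had 889, 401 and 253 in KO PCs and 29.5, 145 and 146 in KO VMs. Of the 34, 26 had PC libraries wholly above the VM libraries, against 8.73% of all genes. Summed over the list, endothelial genes stood at 6332, 3887 and 2983 in KO PCs and at 1204, 2332 and 2015 in KO VMs. Of the 40 list members, *Cldn5*, *Sox17*, *Sox18*, *Nos3*, *Plvap* and *Hapln1* were too low to be tested. The number called was 2, 4 and 15 without KO PCs 1, 2 and 3 and 2, 4 and 2 without KO VMs 1, 2 and 3.

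Of 29 fibroblast genes tested, 10 were called higher (11 in DESeq2 and 9 in voom), and 23 of the 29 lay wholly above the VM libraries. *Bgn*, which encodes the small leucine-rich proteoglycan biglycan, had 201, 174 and 161 in KO PCs and 11.05, 44.6 and 33.2 in KO VMs, a log2 fold change of 2.57 (standard error 0.326, adjusted p = 0.00179). *Dcn*, the gene of decorin, a proteoglycan abundant in cardiac fibroblasts, had 564, 488 and 357 against 34.4, 176 and 142 (log2 fold change 1.98, standard error 0.351, adjusted p = 0.0140). *Pdgfra*, the receptor that marks cardiac fibroblasts, had 25.9, 51.5 and 40.6 against 3.68, 8.91 and 8.04 (log2 fold change 2.49, standard error 0.485, adjusted p = 0.0240). These values were more even across the PC libraries than those of endothelial genes.

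*Dpt*, *Lum*, *Mgp*, *Vim*, *Gsn* and *Sparc* were called as well, with log2 fold changes of 1.80 (*Sparc*, a collagen-binding matrix protein) to 3.41 (*Dpt*, dermatopontin of the collagen matrix). *Mmp2*, a gelatinase gene, had 16.8, 23.0 and 17.98 in KO PCs against 1.23, 2.23 and 2.01 in KO VMs, and was at least 5.75-fold higher. For *Mmp2* and *Dpt* the KO VM mean was 5 or less, so both were tested through the PC libraries. The fibrillar collagen genes *Col1a1*, *Col1a2* and *Col3a1* had log2 fold changes of 1.87, 1.79 and 0.98 without passing the adjustment (adjusted p = 0.398, 0.0834 and 0.618). *Tcf21*, a transcription factor that defines cardiac fibroblasts, had normalized counts of 3.05, 1.10 and 2.32 in KO PCs and 0, 0 and 3.01 in KO VMs, and *Thy1* had at most 2.19 in any KO library. Summed over the 40 genes, the list stood at 3634, 3442 and 2749 in KO PCs and 1220, 1946 and 2017 in KO VMs. The calls numbered 5, 5 and 12 without KO PCs 1, 2 and 3 and 5, 6 and 4 without KO VMs 1, 2 and 3.

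Among mural cell genes, 3 of 16 tested were called, against 0.854% of all genes. The PC libraries lay wholly above the VM libraries for 6 of the 16, against 8.73% of all genes. Of the 16, 4 had a VM mean of 5 or less and so passed the filter through the PC libraries. *Pdgfrb*, the platelet-derived growth factor receptor of pericytes, had 68.6, 27.4 and 19.7 in KO PCs and 0, 5.57 and 2.01 in KO VMs, a log2 fold change of 3.80 (standard error 0.749, adjusted p = 0.0252). *Rgs5*, a regulator of G protein signalling abundant in pericytes, had 1530.0, 1129.7 and 587 against 50.3, 433 and 162 (log2 fold change 2.32, standard error 0.474, adjusted p = 0.0279), and *Cald1*, caldesmon, had a log2 fold change of 1.91 (adjusted p = 0.0461). The contractile smooth muscle gene *Myh11* had 143, 42.7 and 13.92 in KO PCs and 3.68, 27.9 and 18.1 in KO VMs, which overlapped, and *Acta2* differed by 0.48 on the log2 scale (adjusted p = 0.618). All 3 calls were lost without KO PC 1, without KO PC 2, without KO VM 1 or without KO VM 3.

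Leukocyte genes were low, and their sum did not overlap between the groups. It was 569, 470 and 490 in KO PCs and 28.2, 153 and 136 in KO VMs. *Lyz2*, the lysozyme gene of macrophages, had 163, 161 and 150 against 2.45, 59.1 and 37.2, a log2 fold change of 2.23 (standard error 0.462, adjusted p = 0.0289). *Lcp1*, which encodes the actin-bundling protein L-plastin of blood cells, had 32.03, 29.6 and 30.7 against 6.14, 7.80 and 2.01, a log2 fold change of 2.53 (standard error 0.543, adjusted p = 0.0356). Both were nearly level across the 3 PC libraries. They were the only 2 called of 13 tested, against 0.854% of all genes, and 9 of the 13 had a VM mean of 5 or less. The pan-leukocyte gene *Ptprc* had 15.3, 13.1 and 22.6 against 4.91, 0 and 10.0 (adjusted p = 0.470), and the T cell genes *Cd3e*, *Cd3g* and *Trbc2* had no count in any KO library.

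Of the nerve and Schwann cell list, *Scn7a*, a sodium channel gene expressed in glia and nerve, was the 1 gene called of 6 tested, against 0.854% of all genes. It had 74.7, 39.4 and 34.8 in KO PCs and 3.68, 6.69 and 10.0 in KO VMs (log2 fold change 2.79, standard error 0.490, adjusted p = 0.0136). Several defining genes of that list were absent, since *Sox10*, *Ngfr*, *Gfap*, *Th* and *Tubb3* had 0 counts in all 6 libraries. Of the list's 34 genes, 23 were at 3 or fewer counts in every KO library.

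*Igfbp5*, which stood on the epicardial list and encodes an insulin-like growth factor binding protein that other cardiac cells express too, was the steadiest of all calls. It had 522, 308 and 362 in KO PCs and 112, 118 and 128 in KO VMs, a log2 fold change of 1.73 (standard error 0.202, adjusted p = 0.00179). It was the 1 gene still called when all 12 libraries were fitted together (adjusted p = 0.0447). The mesothelial genes *Msln*, *Upk3b* and *Muc16* had 24.1, 28.5 and 128 in KO PC 2 and 0 in KO PC 1. In KO PC 3 they had 7.54, 3.48 and 29.6, and *Muc16* reached 61.3 in KO VM 3. For 8 of the 9 genes tested from that list, KO PC 2 was the highest PC library. Only *Igfbp5* of the 9 was called, against 0.854% of all genes.

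Fat cell and blood cell markers gave no such separation. *Fabp4* was the 1 call among 4 tested genes of the adipocyte list, against 0.854% of all genes. *Adipoq*, *Plin1*, *Lep* and *Retn* had 0 counts in all 6 libraries. *Hba-a1* and *Hba-a2* had 0 counts in every KO library, and the summed erythroid and platelet list, 24.4 to 55.7 in KO PCs and 27.002 to 45.2 in KO VMs, overlapped between the groups. Immediate early genes of dissociation, such as *Fos*, *Jun* and *Egr1*, gave 0 calls in 23 tested by edgeR's quasi-likelihood test. Of the 23, 22 had a positive log2 fold change, against 51.3% of all genes, and the median was 0.32. Calls numbered 3 without KO PC 3, 2 with the replicate block and 4 without a filter on low counts, and 0 in DESeq2 and voom. The sums overlapped (2679 to 3904 in KO PCs, 2297 to 3094 in KO VMs).

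The 3 KO PC libraries did not carry the same genes at the same strength. The 8 genes called in both genotypes were all highest in KO PC 3, whereas of the 29 called non-myocyte genes 26 were highest in KO PC 1, 3 in KO PC 2 and 0 in KO PC 3. Over all 111 tested non-myocyte genes, called or not, 68, 27 and 16 were highest in KO PCs 1, 2 and 3. For the 13 leukocyte genes tested these numbers were 5, 3 and 5. Among all 10887 genes, 3957 were highest in KO PC 1, 3292 in KO PC 2 and 3638 in KO PC 3. The median log2 ratio of KO PC 3 over KO PC 1, taken on counts plus 1, was 2.13 (from 1.28 to 3.79) for the 8 genes and -1.13 (from -1.96 to 0.63) for the 29. On the other side of the comparison, KO VM 1 was the lowest VM library for 28 of the 29 called non-myocyte genes and for 77 of all 93. It was the lowest for 81 of the 111 tested non-myocyte genes and for 4167 of 10887 genes tested. KO PC 3 also had the most counts outside the mitochondrial genome, and the part of depth and of other cell types in these patterns was not tested.

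**Figure D4:**
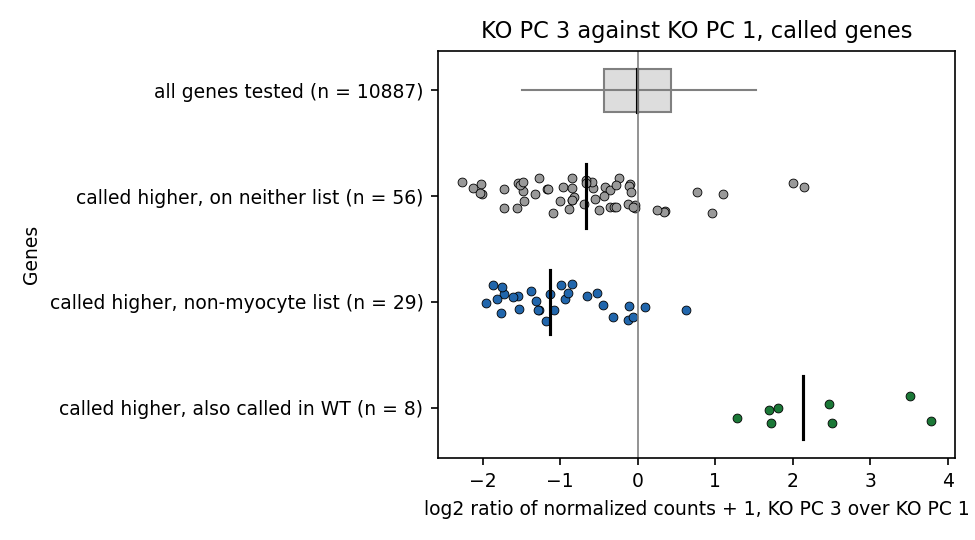
Log2 ratio of normalized counts plus 1 in KO PC 3 over KO PC 1 (horizontal axis) for the genes called higher in KO PCs, 1 point a gene and a black line for the median, with all 10887 genes as a box from the 25th to the 75th percentile and a line from the 5th to the 95th. The 8 genes also called in WT lie at 1.28 to 3.79, and 27 of the 29 non-myocyte genes lie below 0.

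The calls lost with a library differed between these groups. Without KO PC 1, 8 of the 8 shared genes and 8 of the 29 non-myocyte genes were called. Without KO PC 3, 4 of the 8 and 28 of the 29 were called. Without KO VM 1 the numbers were 0 of 8 and 9 of 29, and without KO VM 2 they were 1 and 14. Without KO VM 3 they were 1 and 8, and without KO PC 2 they were 7 and 11. Of all 93 genes called higher, 34, 42 and 80 were called without KO PCs 1, 2 and 3. Without KO VMs 1, 2 and 3 the calls among the 93 numbered 19, 35 and 20.

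A further 56 genes were called higher in KO PCs without being on a non-myocyte list or called in WT, of which 46 were highest in KO PC 1, 3 in KO PC 2 and 7 in KO PC 3. The leading ones by fitted fold, whose order is not determined for genes at the floor in KO VMs, were *Cyp1b1*, *Ifitm3*, *Prdm1*, *Igfbp3*, *Lrch2*, *Ltbp4*, *Mxra8* and *Slc16a12*. *Ifitm3*, an interferon-induced membrane protein gene with close paralogs, had 102, 37.3 and 24.4 in KO PCs and 0, 4.46 and 1.005 in KO VMs, a log2 fold change of 4.75 (standard error 0.768, adjusted p = 0.0104). *Igfbp3*, another binding protein of insulin-like growth factors, had 48.8, 15.3 and 10.4 against 2.45, 1.11 and 0 and was at least 7.43-fold higher. *Cyp1b1*, a monooxygenase gene, was at least 4.64-fold and *Ltbp4*, a latent TGF-β binding protein gene, at least 7.21-fold higher against the VM floor. All 4 were highest in KO PC 1.

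*Slc16a12*, a gene of the monocarboxylate transporter family, was highest in KO PC 3 instead, with 10.7, 28.5 and 50.5 in KO PCs and 2.45, 1.11 and 4.02 in KO VMs (log2 fold change 3.53, standard error 0.690, adjusted p = 0.0240). *Prdm1*, which encodes the transcriptional repressor Blimp1, had 7.63, 15.3 and 33.6 against 0, 0 and 2.01 and was at least 5.64-fold higher. *Mxra8*, a matrix remodelling associated gene, and *Lrch2* were at least 7.84-fold and 6.47-fold higher, with their highest values in KO PC 3 too. *Slc24a2*, a gene of a potassium-dependent sodium/calcium exchanger that was chosen after its values were seen, had 76.3, 38.3 and 71.3 against 4.91, 7.80 and 12.1. Its log2 fold change of 2.86 (standard error 0.435, adjusted p = 0.00739) kept its call in all 6 omissions.

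Genes picked after their values were seen show the other kinds of transcript among the 56. *Cxcl12*, a chemokine gene of endothelial and stromal cells, had 467, 204 and 95.7 in KO PCs and 38.05, 60.2 and 52.2 in KO VMs (log2 fold change 2.30, adjusted p = 0.0172). *Timp3*, a gene of a metalloproteinase inhibitor, had 262, 181 and 176 against 54.0, 71.3 and 60.3 (log2 fold change 1.72, adjusted p = 0.00210). *Cox6a2*, which encodes the heart and skeletal muscle form of a subunit of cytochrome c oxidase, had a log2 fold change of 0.94 (standard error 0.158, adjusted p = 0.0117) and was highest in KO PC 3, at 3220, against 1244 to 1583 in KO VMs. The calls of *Eef1a1*, *Actb*, *Tmsb4x* and *B2m* are less certain, because processed pseudogenes or paralogs of most of them can share reads, as are those of the mitochondrial tRNA genes *mt-Tp* and *mt-Tc*.

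Of 28 conduction genes tested on a list of 36, 4 were called higher, namely *Cntn2*, *Scn10a*, *Etv1* and *Sema3a*, against 0.854% of all genes. The PC libraries lay wholly above the VM libraries for 9 of the 28, against 8.73% of all genes, and the median log2 fold change was 0.73. KO PC 3 was the highest PC library for 21 of the 28, and 7 of the 28 had a VM mean of 5 or less. The following values of genes that were not called were chosen after they were seen. *Alcam*, an adhesion molecule gene of the same superfamily as *Ncam1*, had a log2 fold change of 2.89 (adjusted p = 0.151) with PC libraries wholly above VM libraries. The pacemaker channel gene *Hcn4* had 9.15, 12.1 and 27.3 in KO PCs and 16.0, 10.0 and 5.02 in KO VMs, and the homeobox gene *Irx2* had 21.4, 18.6 and 89.3 against 11.05, 24.5 and 18.1. Both overlapped between the groups. *Nkx2-5*, a core cardiac transcription factor gene, differed by 0.26 (adjusted p = 0.909). *Pcp4*, a calmodulin-binding protein gene of PCs, had 0, 4.38 and 11.02 in KO PCs and 0 in all 3 KO VMs and did not reach the minimum for testing.

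Of 43 axon guidance genes tested, 5 were called higher, against 0.854% of all genes, and 13 lay wholly above the VM libraries, against 8.73%. Besides *Cntn2*, *Slit2* and *Sema3a* they were *Nrp2*, a neuropilin that serves as a semaphorin coreceptor, and *Dpysl2*, which encodes CRMP2, a cytoplasmic mediator of semaphorin signals. *Nrp2* had 97.6, 65.7 and 54.5 in KO PCs and 4.91, 14.5 and 20.1 in KO VMs (log2 fold change 2.40, standard error 0.422, adjusted p = 0.0136). *Dpysl2* had 68.6, 44.9 and 62.6 against 1.23, 12.3 and 12.1 (log2 fold change 2.73, standard error 0.493, adjusted p = 0.0154). Of the 43, 17 were highest in KO PC 1, 9 in KO PC 2 and 17 in KO PC 3. The median log2 fold change of the 43 was 0.73, against 0.01 over all genes, and 1 to 5 were called when 1 library was left out. Of the 43, 7 had a VM mean of 5 or less and so passed the filter through the PC libraries.

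Of 50 ion channel genes tested, *Scn10a* and *Scn7a* were called, against 0.854% of all genes, and the median was 0.14. The PC libraries lay wholly above the VM libraries for 10 of the 50, against 8.73% of all genes. They lay wholly below for 6, against 6.88%. Summed over the 81 genes of the list, PCs stood below VMs, at 24161 to 24707 against 28671 to 39351 normalized counts. Of the 50 tested, 27 had a positive log2 fold change, against 51.3% of all genes, so most did not share the direction of the sum. *Kcnd2*, a subunit of the transient outward potassium current, had 124, 139 and 91.6 in KO PCs and 249, 203 and 173 in KO VMs, without passing the adjustment (log2 fold change -0.83, adjusted p = 0.0908). Of 40 contractile and calcium-handling genes, 0 were called in either direction by edgeR's quasi-likelihood test and the median was -0.14. The PC libraries lay wholly below the VM libraries for 10 of the 40, against 6.88% of all genes, *Ryr2* and *Atp2a2* among them at -0.54 and -0.44 (adjusted p = 0.164 and 0.159). Their summed level was 578490 to 734780 in KO PCs and 701743 to 768480 in KO VMs, so the myocyte transcripts that define both sorted fractions were abundant in all 6 libraries. Of 14 atrial and fetal genes tested, 0 were called, with a median of 0.25.

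Of 46 extracellular matrix genes tested, 7 were called higher in KO PCs, against 0.854% of all genes, and 29 lay wholly above the VM libraries, against 8.73%. Besides *Vcan*, *Bgn*, *Lum*, *Dcn* and *Sparc* the calls were *Sparcl1* and *Lama4*. *Sparcl1*, a relative of *Sparc* that endothelial and mural cells express, had 362, 267 and 241 in KO PCs and 25.8, 116 and 71.3 in KO VMs (log2 fold change 2.01, standard error 0.335, adjusted p = 0.0113). *Lama4*, a laminin chain of vascular basement membrane, had 180, 114 and 170 against 46.6, 70.2 and 78.4 (log2 fold change 1.24, standard error 0.251, adjusted p = 0.0270). *Vcan* was the 1 matrix gene called that was highest in KO PC 3. The list overlaps the fibroblast list, and the number called ran from 4 to 10 when 1 library was left out.

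Set beside the WT comparison, all 93 genes called higher in KO PCs also had a positive log2 fold change in WT PCs. An unadjusted p under 0.05 in WT was found for 60 of the 93, and 5.09% of all genes tested in WT were higher in PCs at that level. The 29 non-myocyte genes had a median log2 fold change of 2.23 in KO and 1.23 in WT, where 21 of them had an unadjusted p under 0.05. They were chosen by their call in KO. Over all genes of the non-myocyte lists that were tested, 111 in KO and 140 in WT, the medians lay closer, at 1.97 and 1.39. For the 8 shared genes the medians were 3.51 in KO (3.42 with *Drd2* at its bound) and 5.15 in WT, the comparison that chose them together with KO.

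**Figure D5:**
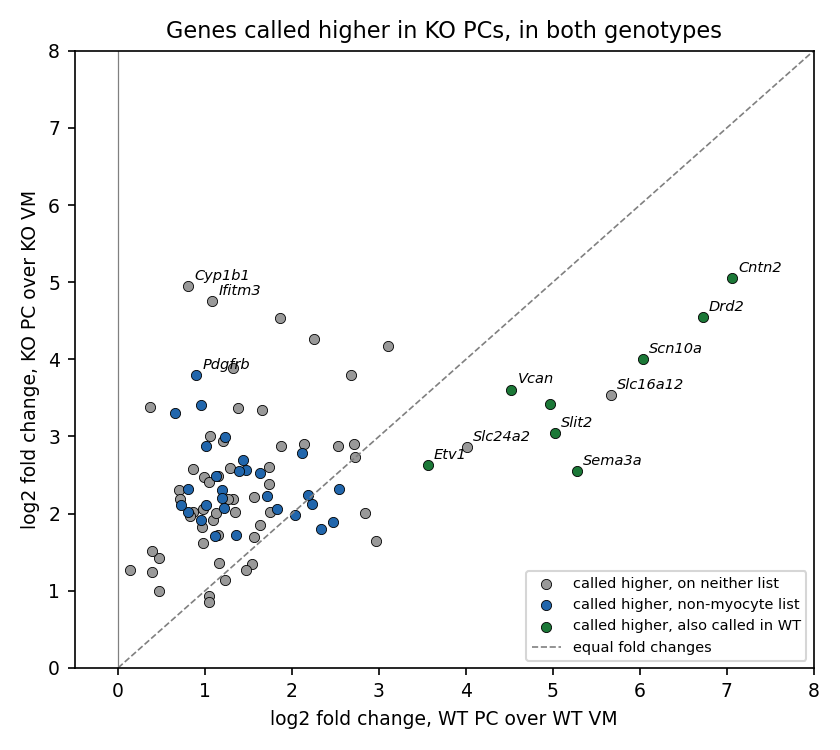
Log2 fold change of PCs over VMs in KO (vertical axis) against that in WT (horizontal axis) for the 93 genes called higher in KO PCs, with a dashed line where both are equal. The 8 genes called in both genotypes (green) lie below the line, and 24 of the 29 non-myocyte genes (blue) lie above it. The 29 were chosen by a KO call and the 8 by calls in both genotypes, which bears on their side of the line.

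The difference of the PC to VM effect between genotypes was tested in all 12 libraries. Of 11533 genes, 0 were called by edgeR's quasi-likelihood test, with 340 at an unadjusted p under 0.05 (2.95%), and DESeq2's Wald test called 0 with 450 at an unadjusted p under 0.05. The smallest adjusted p was 0.999. Of the 93 genes, 13 had an unadjusted p under 0.05. The 93 were chosen by a call in the same KO libraries that enter this test, which bears on that number and on the direction of the differences. For *Sema3a* and *Slit2* the effect was smaller in KO, with differences of -2.76 and -2.02 on the log2 scale. For 11 genes it was larger in KO, among them *Ifitm3* by 3.68, *Mmp2* by 2.64, *Dpt* by 2.45 and *Pdgfrb* by 2.91. The difference for *Cntn2* was -2.04 and that for *Gja5* 0.19, and each of the 8 genes named here had an adjusted p of 0.999 in edgeR. No gene is therefore shown to differ between genotypes in its PC to VM effect.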

How the data were processed

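Sorted PCs and VMs of KO and WT hearts were profiled by RNA-seq in 3 libraries a group. The deposited files hold counts, whole read pairs per Ensembl gene, which the authors made with STAR and HTSeq on mm10; the strand setting is not given in the sources used here. The classes at the end of each file that name no gene (40.0% to 45.0% of KO read pairs) were left out. Gene names and positions came from GENCODE M21 (GRCm38), which lacked 468 of 48526 genes. Groups followed the sample titles. Where the mean normalized count of the libraries compared exceeded 5, a gene was tested in R 4.3.3 by edgeR 4.0.16 (TMM, quasi-likelihood test, two-sided, Benjamini-Hochberg adjustment, threshold 0.05), for KO, for WT and for the difference of both effects. The standard error is the log2 fold change divided by the square root of F. Called genes were named by list, by a call in WT and as the 15 highest by fold. The members, lists and rules were chosen with earlier results of these data known. Alternatives were DESeq2 1.42.0, its size factors, voom in limma 3.58.1, other filters, the replicate block, a fit without mitochondrial genes, a fit of all libraries and omission of each library. The tests were checked on simulated counts.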

Additional observations from a re-analysis of the deposited data

How the results depend on the processing

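Of 94 genes called between KO PCs and KO VMs, 94 were shared by 326 calls without a filter on low counts, 78 by 135 in DESeq2 and 69 by 75 in voom. A fit of all 12 libraries called 1. Leaving out 1 library gave 19 (without KO VM 1) to 150 (without KO PC 3). In WT, 13 became 114 in DESeq2, 297 without a filter and 131 in voom, and 1 to 108 when 1 library was left out. The difference between genotypes gave 0 calls except 19 without a filter. The cause of these changes was not tested. Of the 100 genes refitted one by one, none changed direction in an alternative run that gave it an adjusted p. The other genes named were not followed. The 79.0% to 88.7% of counts on mitochondrial genes in KO libraries limited the depth for all others.

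Replicate numbers were not taken as pairs, because deviations of same-numbered KO PC and KO VM libraries correlated at only -0.01, 0.13 and 0.02 over 7624 genes and the sources do not say that a number marks a heart. With the replicate block, 115 genes were called in KO, 91 of the 94 among them, with *Gja5* newly past the threshold (adjusted p = 0.0106), and 4 in WT, and 0 differed between genotypes.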
